A study of Mus musculus with 12 samples.

Results

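The 9 genes described here, Pfkfb3, Hk2, Pgk1, Ldha, Pdk1, Vegfa, Adm, Egln3 and Bnip3, are genes that many cells switch on when oxygen is short, and they were taken by symbol from the read count matrix of 12 mouse cortex libraries. The matrix holds 25238 genes, and all 9 were in it. Cells that lack oxygen stop degrading the alpha subunits of hypoxia-inducible factor (HIF), which then pair with ARNT, bind a short DNA motif and raise the transcription of genes for glycolysis, vessel growth, vessel tone and mitochondrial turnover. When oxygen is present, prolyl hydroxylases of the Egln family mark the alpha subunits for destruction through VHL. In the brain, ischemia engages this pathway, and glycolysis is also a property of astrocytes and of activated microglia in tissue that has its oxygen back. The 9 genes cover the roles of the pathway, with enzymes and regulators of glycolysis (Pfkfb3, Hk2, Pgk1, Ldha, Pdk1), secreted factors (Vegfa, Adm), a hydroxylase that feeds back on HIF (Egln3) and a receptor for mitophagy (Bnip3).

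The ISP group was 4 mice with stroke by transient occlusion of the middle cerebral artery (MCAo), given intracellular sigma peptide (ISP), which enters cells and binds PTPσ, a receptor of chondroitin sulfate proteoglycans. They received 1 μg/g/day under the skin from day 1, and cortex was taken at day 14 post-stroke. The Veh group was 4 mice with the same surgery and schedule, given 5% DMSO in saline according to the methods and the labels, while the study's account of the result names a scrambled peptide. A further 4 libraries are labelled control, and although the labels' common treatment text names MCAo, neither surgery nor treatment nor day is assigned to these mice in the sources used here. The methods give young adult male mice for stroke surgery, either C57BL/6J or a nestin-CreERT2 tdTomato reporter line, and do not say which of them gave the RNA-seq mice. Each ISP and Veh library is 1 mouse by the methods, and the control libraries carry numbers of the same kind. The tissue was micro-punched from sensorimotor and motor cortex near the infarct, so that neurons, glia and vessels are mixed in unknown proportions.

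Total counts per library were 19325979 to 28685864 with ISP, 17442711 to 24706638 with Veh and 21322702 to 29845629 in control. Levels are given as CPM (counts scaled to library size) after TMM scaling, a correction for library composition. The neuron markers summed to 8044 to 10046 CPM with ISP, 8884 to 9974 with Veh and 9676 to 10131 in control, so neuron RNA was abundant in every library. Gfap, the filament protein of reactive astrocytes, averaged 1124 ± 947 CPM with ISP, 307 ± 242 with Veh and 27.9 ± 3.71 in control (SD, n = 4 each). The 9 microglia and macrophage markers stood apart in ISP 14 and ISP 18, at 1325 and 1227 CPM in sum, against 420 and 385 in ISP 12 and ISP 16, 334 to 594 in Veh libraries and 247 to 322 in control libraries. The choroid plexus and ependyma markers, led by Ttr, summed to 1157 CPM in ISP 18 and to 1658 in Veh 6, and to 4.24 to 11.2 in the other 10 libraries. Neutrophil markers summed to at most 2.17 CPM, with Ly6g at 0 in all 12 libraries, and erythrocyte markers to at most 2.20 CPM, with the hemoglobin genes at 0. T cell markers summed to at most 3.26 CPM. The astrocyte markers summed to 3711 to 6139 CPM with ISP, 3157 to 4693 with Veh and 2794 to 3421 in control, and those of oligodendrocyte precursors to 256 to 434, 245 to 339 and 236 to 264 CPM in the same groups. Pericyte and smooth muscle markers summed to 221 to 257, 230.5 to 329 and 223 to 249 CPM, and meningeal fibroblast markers to 32.1 to 67.1, 34.3 to 169 and 34.7 to 40.3 CPM, again in the same groups, with Veh 10 the highest in both.

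The promoter sequences of the 9 genes are shown because HIF reads a motif in such DNA, and the list was not chosen by it. RefSeq gives 13 promoter windows for these genes on GRCm38.p6, each of 300 bases, with 250 before an annotated start and 50 after it. The letters ACGTG and GCGTG, the core of the hypoxia response element, were searched on both strands, and the palindrome CACGTG counts as 2 positions because it holds ACGTG on each strand. At least 1 of these motifs was in 11 of the 13 windows and in at least 1 window of each of the 9 genes, where 43.8% of all 32851 windows in the RefSeq table hold one. In the first window alone, 8 of the 9 genes held one, and Vegfa did not. At least 2 positions were in 9 of the 13 windows, against 20.6% of all windows. Each window below is 5′ to 3′ on the strand of its gene, with motif letters in capitals. A match is a description of the letters and was not tested for binding. The genes were listed as hypoxia response genes, and the other windows were not matched for GC content, so these shares do not test the list. The windows are chr2:11502041-11502340 (minus strand) for the second annotated start of Pfkfb3, chr6:82774405-82774704 (minus) for Hk2, chr7:46845554-46845853 (plus) for the first start of Ldha, chr17:46025114-46025413 (minus) for the second start of Vegfa and chr7:138909457-138909756 (minus) for Bnip3.
Pfkfb3: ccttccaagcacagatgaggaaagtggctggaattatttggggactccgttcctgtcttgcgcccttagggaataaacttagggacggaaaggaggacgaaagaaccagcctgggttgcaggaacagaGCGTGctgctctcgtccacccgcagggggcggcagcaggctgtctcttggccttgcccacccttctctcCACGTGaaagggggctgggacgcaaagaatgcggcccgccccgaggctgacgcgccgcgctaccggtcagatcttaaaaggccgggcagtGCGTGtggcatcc
Hk2: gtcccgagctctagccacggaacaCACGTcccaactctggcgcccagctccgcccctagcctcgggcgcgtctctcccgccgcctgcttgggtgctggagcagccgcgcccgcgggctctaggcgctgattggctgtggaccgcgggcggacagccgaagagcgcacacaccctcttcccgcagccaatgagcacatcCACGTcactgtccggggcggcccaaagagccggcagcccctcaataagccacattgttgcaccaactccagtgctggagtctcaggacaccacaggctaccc
Ldha: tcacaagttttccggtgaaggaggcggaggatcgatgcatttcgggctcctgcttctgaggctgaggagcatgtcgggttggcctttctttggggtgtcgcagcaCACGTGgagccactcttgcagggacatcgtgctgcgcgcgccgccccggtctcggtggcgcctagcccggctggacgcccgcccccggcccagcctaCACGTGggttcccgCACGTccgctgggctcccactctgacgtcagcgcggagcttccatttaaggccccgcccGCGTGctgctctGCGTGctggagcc
Vegfa: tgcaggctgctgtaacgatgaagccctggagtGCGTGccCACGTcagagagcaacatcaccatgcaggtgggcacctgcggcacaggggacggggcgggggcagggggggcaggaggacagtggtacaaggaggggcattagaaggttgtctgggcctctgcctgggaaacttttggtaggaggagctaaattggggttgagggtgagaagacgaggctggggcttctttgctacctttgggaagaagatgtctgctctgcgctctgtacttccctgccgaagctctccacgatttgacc
Bnip3: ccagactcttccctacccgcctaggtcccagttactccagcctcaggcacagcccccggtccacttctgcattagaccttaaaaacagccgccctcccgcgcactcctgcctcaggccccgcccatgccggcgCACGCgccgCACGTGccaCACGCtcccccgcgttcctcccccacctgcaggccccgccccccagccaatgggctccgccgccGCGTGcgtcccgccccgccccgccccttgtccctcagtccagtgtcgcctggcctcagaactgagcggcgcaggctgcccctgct
These 5 genes are the 4 that differed in at least 1 comparison plus Bnip3, which differed in none, and for genes with 2 windows the one with more motif positions is shown. The other window held 1 position for Pfkfb3, 2 for Ldha and 0 for Vegfa. Ldha had the most positions, 7, with CACGTG beginning 145 and 48 bases before the start. Bnip3 had 5 positions, with CACGTG beginning 108 bases before the start, and Pfkfb3 had 4, with CACGTG beginning 53 bases before it. Hk2 held ACGTG 226 and 52 bases before the start, both on the opposite strand. Vegfa had 2 positions in the window shown, which lies inside the gene, and 0 in the window of its first start.

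The comparison of ISP with Veh asks what the peptide did to these genes in the peri-infarct cortex, and control gives a level without an assigned stroke or treatment. The genes did not move as a block. Between ISP-treated and vehicle-treated stroke mice none of the 9 passed the whole-table test, where Pfkfb3 had the smallest p of the group and was higher in every ISP mouse. In Veh mice, Pfkfb3 and Vegfa fell relative to control. In ISP mice, Vegfa and Ldha fell relative to control, and Hk2 rose to 3.17 times the control level. Hk2 was highest in ISP 14 and ISP 18, at 11.1 and 9.77 CPM, against 3.92 and 3.62 CPM in ISP 12 and ISP 16. Without ISP 14 and ISP 18, edgeR called 0 of the 9 for ISP against control. Pgk1, Pdk1, Egln3, Bnip3 and Adm passed the threshold in no comparison.

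The test was edgeR's quasi-likelihood test on the counts of the 8 libraries compared, with a gene called where its Benjamini-Hochberg p over all tested genes was under 0.1. For ISP against Veh it called 0 of 9 members and 0 of 15214 genes (0%). Without adjustment, Pfkfb3 (higher) and Ldha (lower) had p under 0.05, as did 2334 genes (15.3%). DESeq2 called 1 of the 9, Pfkfb3, and 401 of 16363 genes (2.45%), while limma-voom called 0. For Veh against control, edgeR called 2 of 9, both lower, where 337 of 15126 genes were called (2.23%), 1.2% of genes being called as lower. For ISP against control it called 3 of 9, 1 higher and 2 lower, where 1547 of 15232 genes were called (10.2%), 6.74% as higher and 3.42% as lower. The median log2 fold change of the 9 genes was 0.00 for ISP against Veh, -0.08 for Veh against control and -0.06 for ISP against control, beside 0.02, 0.02 and -0.01 over all tested genes. The comparisons share libraries with each other in pairs, so their values stand side by side and are not independent of each other.

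**Figure D1:**
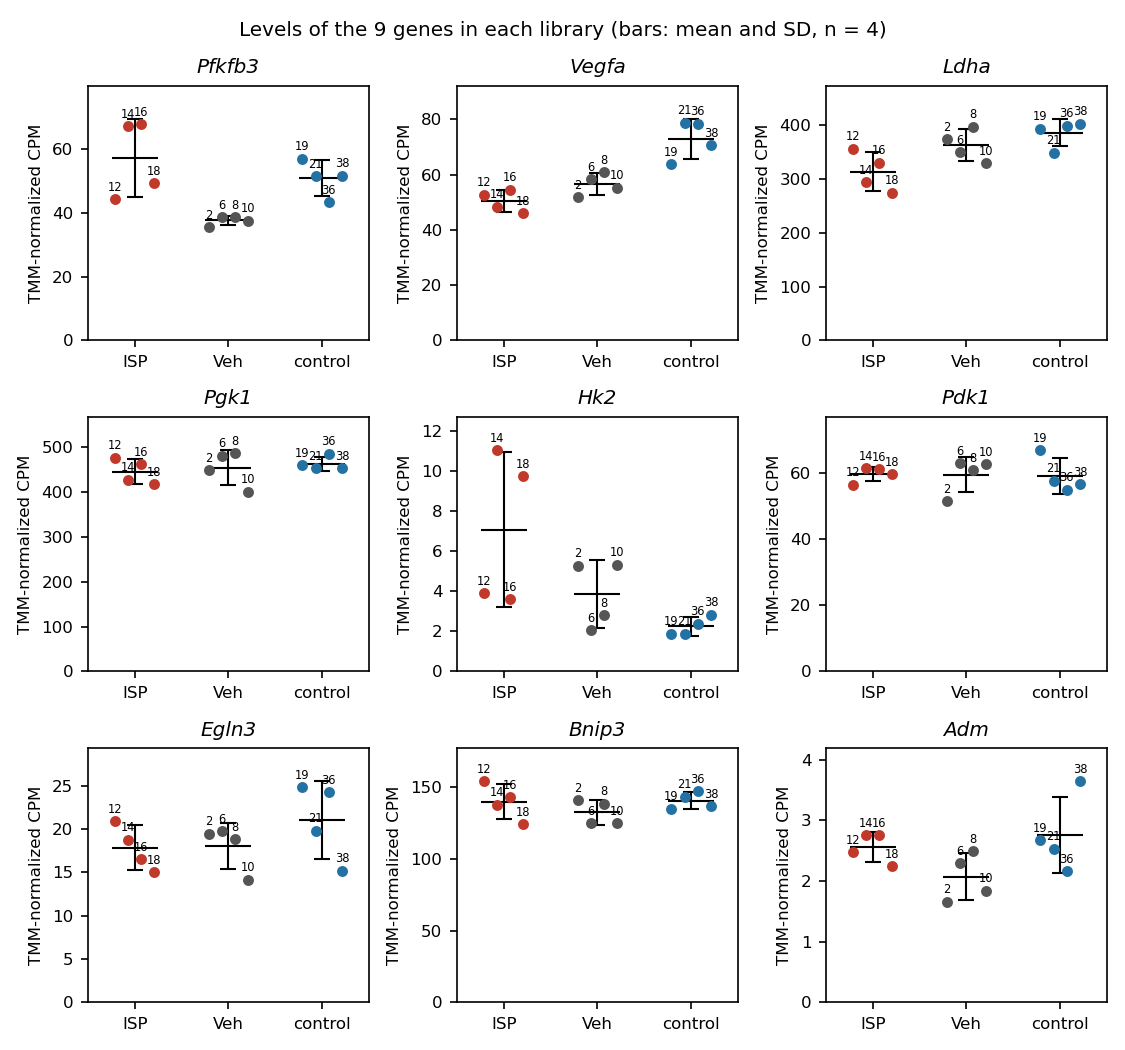
Level of each of the 9 genes in each library (TMM-normalized CPM, vertical axes from 0), with ISP left, Veh in the middle and control right; points carry the mouse number, and the bars are the mean and SD of 4 mice. The Veh points for Pfkfb3 lie between 35.6 and 38.7 CPM, below all ISP and control points, and the Hk2 points of ISP 14 and ISP 18 lie at 11.1 and 9.77 CPM.

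Pfkfb3 (chr2:11471433-11554077, minus strand of GRCm38) makes the sugar phosphate that activates phosphofructokinase, and so speeds glycolysis. It was at 44.3, 67.3, 67.9 and 49.3 CPM in ISP 12, 14, 16 and 18, at 35.6, 38.7, 38.7 and 37.6 CPM in Veh 2, 6, 8 and 10, and at 57.0, 51.5, 43.4 and 51.7 CPM in control 19, 21, 36 and 38. The Veh mice were the lowest of the 12 and were tightly grouped, overlapping neither the ISP nor the control mice. The ISP mice spread most, with ISP 14 and ISP 16 above every other mouse and ISP 12 and ISP 18 within the range of control. In means, this was 57.2 ± 12.2 CPM with ISP, 37.6 ± 1.45 with Veh and 50.9 ± 5.61 in control (SD, n = 4 each).

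Against Veh, the log2 fold change of Pfkfb3 with ISP was 0.60 (standard error 0.13, 95% interval 0.31 to 0.90), or 1.52-fold. The edgeR p was 0.000832, the 40th smallest of the table, and the adjusted p was 0.261, so the call failed. DESeq2 called it with an adjusted p of 0.0161, but not when ISP 14 (adjusted p = 0.104) or Veh 8 (adjusted p = 0.105) was left out. Complete separation of the groups with ISP higher was seen in 2.8% of tested genes. Against control, Pfkfb3 fell in Veh mice by 0.43 on the log2 scale (standard error 0.09, edgeR adjusted p = 0.0746), and all Veh mice lay below all control mice, as 5.39% of tested genes did. This call was lost when any one of Veh 2, 8 or 10 or control 21, 36 or 38 was left out (edgeR adjusted p 0.105 to 0.188), with a log2 fold change that stayed between -0.49 and -0.37 over all alternatives. ISP against control gave 0.17 (95% interval -0.15 to 0.48, edgeR adjusted p = 0.547). The Veh mice stand in both of the contrasts in which Pfkfb3 separated. Fewer cells of a type and less RNA per cell cannot be told apart in bulk tissue, for this gene or any other here.

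**Figure D2:**
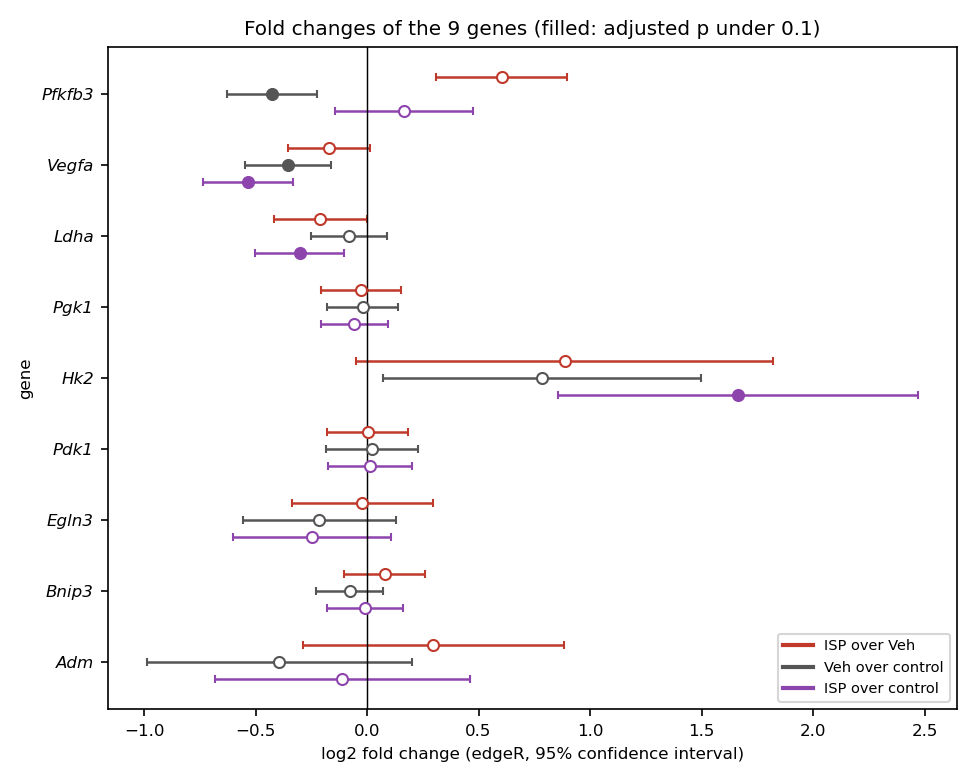
Log2 fold change of each of the 9 genes (horizontal axis) in the 3 comparisons from edgeR, with 95% confidence intervals; filled points have an adjusted p under 0.1. Pfkfb3 lies at 0.60 for ISP over Veh, -0.43 for Veh over control and 0.17 for ISP over control, while the intervals of Pgk1 and Pdk1 include 0 in all comparisons.

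The gene whose levels over the 12 libraries were most like those of Pfkfb3, among 13956 genes, was P4ha1, a subunit of collagen prolyl hydroxylase and itself a hypoxia target (Pearson r = 0.925, Spearman rho = 0.930 on log2 CPM, a description over libraries of 3 groups). P4ha1 was at 46.2, 57.5, 69.3 and 48.4 CPM in ISP 12, 14, 16 and 18, at 38.7, 36.1, 43.4 and 37.5 CPM in Veh 2, 6, 8 and 10, and at 48.1, 49.6, 45.2 and 50.2 CPM in control 19, 21, 36 and 38. As for Pfkfb3, all Veh mice were below all ISP and control mice, and ISP 14 and ISP 16 were the highest. All ISP mice were above all Veh mice in 2.8% of tested genes, and all Veh mice below all control mice in 5.39%. P4ha1 was picked for its likeness over these same libraries. Its order and its fold changes are therefore no separate support for those of Pfkfb3. With ISP against Veh its log2 fold change was 0.51 (standard error 0.13, edgeR adjusted p = 0.261, DESeq2 adjusted p = 0.0430), and with Veh against control -0.30 (edgeR adjusted p = 0.113, DESeq2 adjusted p = 0.0294).

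**Figure D3:**
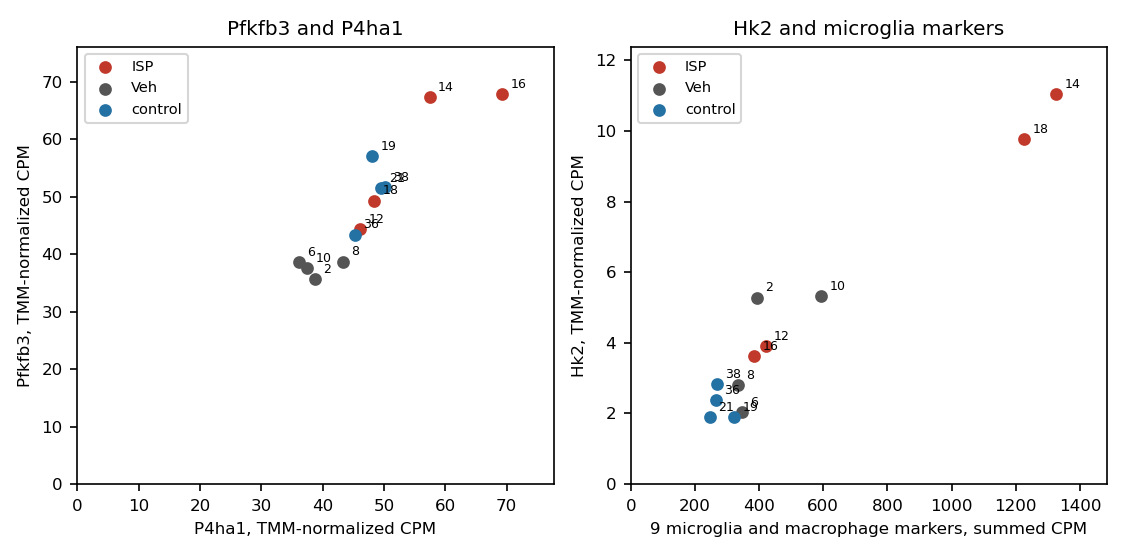
Left, Pfkfb3 against P4ha1 in each library, and right, Hk2 against the sum of 9 microglia and macrophage markers (all in TMM-normalized CPM), with ISP, Veh and control mice in different colors and mouse numbers beside the points. The 4 Veh mice lie at the low end of the left panel, at 35.6 to 38.7 CPM of Pfkfb3, and ISP 14 and ISP 18 stand apart at the top right of the right panel.

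Hk2 (chr6:82725025-82774454, minus strand) encodes a hexokinase, which traps glucose in the cell as its phosphate. It was one of the lowest of the 9, at 3.92, 11.1, 3.62 and 9.77 CPM in ISP 12, 14, 16 and 18, at 5.28, 2.05, 2.81 and 5.33 CPM in Veh 2, 6, 8 and 10, and at 1.89, 1.89, 2.38 and 2.84 CPM in control 19, 21, 36 and 38. ISP 14 and ISP 18 were far above the rest, and every ISP mouse was above every control mouse, while ISP and Veh mice overlapped. Means were 7.09 ± 3.87 CPM with ISP, 3.87 ± 1.69 with Veh and 2.25 ± 0.457 in control (SD, n = 4 each).

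Relative to control, Hk2 rose in ISP mice with a log2 fold change of 1.66 (standard error 0.37, 95% interval 0.86 to 2.47, edgeR adjusted p = 0.0331), and 7.14% of tested genes also had all ISP mice above all control mice. The call was lost without ISP 14 (1.37, adjusted p = 0.107). Without both ISP 14 and ISP 18 the log2 fold change was 0.75 (adjusted p = 0.432). ISP against Veh gave 0.89 (95% interval -0.05 to 1.82, edgeR adjusted p = 0.344), and -0.03 without those 2 mice. Veh against control gave 0.78 (95% interval 0.07 to 1.50, adjusted p = 0.259).

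The 2 mice high in Hk2 were the 2 whose microglia and macrophage markers were high, with 9 of 9 markers counted in every library. ISP 14 and ISP 18 were also the highest of the 12 in astrocyte markers, at 5598 and 6139 CPM in sum. ISP 12 and ISP 16 were at 3830 and 3711 CPM. The neuron markers were lowest in ISP 14 and ISP 18, at 8608 and 8044 CPM. Csf1r, the receptor for colony-stimulating factor, averaged 188 ± 86.8 CPM with ISP, 114 ± 26.9 with Veh and 75.3 ± 4.43 in control, and the complement gene C1qa 205 ± 158, 73.4 ± 33.1 and 41.5 ± 11.6 in the same groups (SD, n = 4 each). Of the 9 microglia and macrophage markers, 8 were called as higher in ISP mice than in control. So were 5 of 8 astrocyte and 6 of 8 oligodendrocyte markers, with 0 lower, where 6.74% of tested genes were called higher. Tap1, a peptide transporter of antigen presentation, had the levels most like those of Hk2 (Pearson r = 0.975, Spearman rho = 0.972 over 12 libraries), at 3.97, 19.5, 3.62 and 15.5 CPM in ISP 12, 14, 16 and 18, 2.97 to 8.11 CPM in Veh mice and 1.71 to 3.41 CPM in control mice. The part of any of these cell types in the Hk2 result was not tested.

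Ldha (chr7:46841475-46855627, plus strand) encodes the lactate dehydrogenase subunit that favors turning pyruvate into lactate. It was at 355.7, 294.3, 329.96 and 274.0 CPM in ISP 12, 14, 16 and 18, at 374.1, 349.95, 396.9 and 329.0 CPM in Veh 2, 6, 8 and 10, and at 393.2, 348.8, 398.5 and 402.5 CPM in control 19, 21, 36 and 38. The lowest mice were ISP 18 and ISP 14, and all groups overlapped. These 2 mice were also the lowest in summed neuron markers, at 8044 and 8608 CPM, and the part of neurons was not tested. Ldha fell in ISP mice against control by 0.30 on the log2 scale (standard error 0.09, edgeR adjusted p = 0.0791), with means of 313 ± 36.4 CPM with ISP and 386 ± 24.9 CPM in control (SD, n = 4 each). This call was lost without any one of ISP 14, ISP 18, control 19, control 36 or control 38 (adjusted p 0.138 to 0.205), and the value was -0.17 without both ISP 14 and ISP 18. ISP against Veh gave -0.21 (95% interval -0.42 to -0.00, edgeR adjusted p = 0.324), and Veh against control -0.08 (adjusted p = 0.659).

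Pgk1 (chrX:106187100-106203699, plus strand), the phosphoglycerate kinase of an ATP-making step, was the steadiest, with 446 ± 28.1 CPM with ISP, 455 ± 39.3 with Veh and 464 ± 15.2 in control (SD, n = 4 each). Its highest mouse, Veh 8, was 1.21 times its lowest, Veh 10. The log2 fold changes were -0.03 for ISP against Veh (95% interval -0.21 to 0.15), -0.02 for Veh against control (-0.18 to 0.14) and -0.06 for ISP against control (-0.21 to 0.09). GENCODE names 3 further genes as relatives or pseudogenes of Pgk1 and 2 of Ldha, and how reads were shared with these is uncertain.

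Pdk1 (chr2:71873224-71903858, plus strand), a kinase that shuts pyruvate dehydrogenase and so keeps pyruvate from the mitochondrial cycle, also had nearly equal group means. These were 59.8 ± 2.25 CPM with ISP, 59.6 ± 5.42 with Veh and 59.1 ± 5.37 in control (SD, n = 4 each). Its log2 fold change was 0.00 for ISP against Veh (95% interval -0.18 to 0.18), 0.02 for Veh against control (-0.18 to 0.23) and 0.01 for ISP against control (-0.17 to 0.20). For both genes, these intervals reach no further than 0.23 from 0 on the log2 scale.

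Vegfa (chr17:46016993-46032369, minus strand) encodes the secreted factor that drives vessel growth and vessel permeability. It was at 52.7, 48.4, 54.5 and 46.0 CPM in ISP 12, 14, 16 and 18, at 51.9, 58.3, 60.8 and 55.3 CPM in Veh 2, 6, 8 and 10, and at 63.7, 78.7, 78.4 and 70.5 CPM in control 19, 21, 36 and 38. All 8 stroke mice lay below all 4 control mice, and ISP and Veh mice overlapped. ISP 18 and ISP 14 were the lowest, as they were in summed neuron markers, and the part of neurons was not tested. Means were 50.4 ± 3.90 CPM with ISP, 56.6 ± 3.87 with Veh and 72.9 ± 7.16 in control (SD, n = 4 each).

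Vegfa fell in ISP mice against control with a log2 fold change of -0.53 (standard error 0.09, 95% interval -0.74 to -0.33, edgeR adjusted p = 0.0205), and 4.75% of tested genes also had every ISP mouse below every control mouse. It passed in each fit with 1 mouse left out (adjusted p 0.00597 to 0.0789) and not without both ISP 14 and ISP 18 (-0.44, adjusted p = 0.180). It fell in Veh mice against control with a log2 fold change of -0.35 (standard error 0.09, edgeR adjusted p = 0.0945), and 5.39% of tested genes also had every Veh mouse below every control mouse. That call was lost when any mouse other than control 19 was left out (adjusted p 0.104 to 0.235). ISP against Veh gave -0.17 (95% interval -0.35 to 0.01, edgeR adjusted p = 0.359). The levels most like those of Vegfa belonged to Unc13a, which primes synaptic vesicles (Pearson r = 0.975, Spearman rho = 0.986 over 12 libraries), with mean levels of 355 CPM with ISP, 382 with Veh and 478 in control.

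Adm (chr7:110627661-110629820, plus strand) encodes adrenomedullin, a secreted peptide that widens vessels. It was low and spread widely, at 2.47, 2.75, 2.75 and 2.24 CPM in ISP 12, 14, 16 and 18, at 1.66, 2.29, 2.50 and 1.84 CPM in Veh 2, 6, 8 and 10, and at 2.68, 2.53, 2.17 and 3.64 CPM in control 19, 21, 36 and 38. All groups overlapped, and the highest mouse was control 38. The log2 fold changes were 0.30 for ISP against Veh (95% interval -0.29 to 0.88), -0.39 for Veh against control (-0.99 to 0.20) and -0.11 for ISP against control (-0.68 to 0.46), with edgeR adjusted p of 0.614, 0.522 and 0.854. Adm had 28 to 78 counts per library.

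Egln3 (chr12:54178981-54203860, minus strand) is a prolyl hydroxylase that HIF induces and that turns HIF down. It was at 20.9, 18.8, 16.6 and 15.0 CPM in ISP 12, 14, 16 and 18, at 19.5, 19.8, 18.8 and 14.1 CPM in Veh 2, 6, 8 and 10, and at 24.8, 19.8, 24.3 and 15.2 CPM in control 19, 21, 36 and 38. Each group held 1 mouse at 15.2 CPM or below, and the groups overlapped. Its log2 fold changes were -0.02 for ISP against Veh (95% interval -0.34 to 0.30), -0.21 for Veh against control (-0.56 to 0.13) and -0.25 for ISP against control (-0.60 to 0.11).

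Bnip3 (chr7:138890836-138909519, minus strand), a receptor on the outer mitochondrial membrane that draws mitochondria into autophagosomes, averaged 139.9 ± 12.4 CPM with ISP, 133 ± 8.54 with Veh and 141 ± 5.72 in control (SD, n = 4 each). Its highest mouse was ISP 12 and its lowest was ISP 18, and the groups overlapped. The log2 fold changes were 0.08 for ISP against Veh (95% interval -0.10 to 0.26), -0.08 for Veh against control (-0.23 to 0.07) and -0.01 for ISP against control (-0.18 to 0.16). An annotated antisense gene shares exonic bases with Bnip3 on the opposite strand. The library protocol names no strand marking, so reads of the 2 may not be told apart.

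Per length of exonic sequence, the order of levels was Pgk1 at 203 CPM per kb, Ldha at 107, Bnip3 at 60.8, Vegfa at 14.0, Pdk1 at 7.65, Egln3 at 7.12, Pfkfb3 at 6.43, Adm at 1.52 and Hk2 at 0.737 (means over 12 libraries). The ranges over libraries overlapped between Pdk1 and Egln3, between Egln3 and Pfkfb3 and between Adm and Hk2, and no other neighbors in the order overlapped. The order of Pdk1, Egln3 and Pfkfb3 was not the same in each group, since the mean of Pfkfb3 (7.57 CPM per kb) was above that of Egln3 (6.69) with ISP, and the mean of Egln3 (7.90) was above that of Pdk1 (7.60) in control. In spread, Hk2 differed most between mice, with its highest mouse at 5.86 times its lowest, followed by Adm at 2.19 times and Pfkfb3 at 1.91 times. Each of the 9 genes had a different gene most like it. For Ldha it was Ptprn (Pearson r = 0.965) and for Pgk1 Chgb (r = 0.965), both genes of secretory granules, for Pdk1 Mnat1 (r = 0.911), for Egln3 the ATP synthase gene Atp5pb (r = 0.888), for Bnip3 Epdr1 (r = 0.878) and for Adm Twistnb (r = 0.861). These likenesses were each the highest of 13956 genes and share the 12 libraries, so they are descriptions only.

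The rest of the pathway was read from 8 lists of further genes, and wherever edgeR called 0 of a list below, limma-voom did as well. Among the 11 regulators of HIF, edgeR called 0 in any comparison, with a median log2 fold change of 0.01 for ISP against Veh, 0.05 for Veh against control and 0.11 for ISP against control. At an unadjusted p under 0.05 there were 3 higher and 1 lower for ISP against Veh, 0 and 1 for Veh against control, and 1 and 0 for ISP against control, and DESeq2 called 1, Cited4. Over all tested genes the share at that unadjusted p was 15.3% for ISP against Veh, 16.3% for Veh against control and 22.3% for ISP against control. The share that edgeR called was 0%, 2.23% and 10.2% in the same order, for this list and those below. Cited4, which competes for the coactivators that HIF uses, was at 9.09 ± 1.53 CPM with ISP and 16.4 ± 3.41 with Veh (SD, n = 4 each), a log2 fold change of -0.85 (standard error 0.18, edgeR adjusted p = 0.261, DESeq2 adjusted p = 0.0102). Arnt, the partner of the HIF alpha subunits, was at 41.2 ± 2.53 CPM with ISP and 34.1 ± 0.835 with Veh, or 0.27 (edgeR adjusted p = 0.261). Hif1an, a hydroxylase that blunts HIF activity, had -0.19 for Veh against control (edgeR adjusted p = 0.221).

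Other hypoxia targets numbered 28, of which 25 or 24 were tested. For ISP against Veh edgeR called 0, and 8 were higher and 1 lower at an unadjusted p under 0.05, while DESeq2 called 3, all higher (P4ha1, Plod1 and Hmox1), with a median log2 fold change of 0.06. Over all tested genes, 15.3% had such an unadjusted p in this comparison, and DESeq2 called 2.45%. Plod1, a collagen lysyl hydroxylase, was at 31.0 ± 8.34 CPM with ISP, 20.6 ± 1.45 with Veh and 17.3 ± 2.50 in control (SD, n = 4 each). For Veh against control the only call by edgeR was Ero1l, an oxidase of the endoplasmic reticulum, which fell by 0.30 on the log2 scale (edgeR adjusted p = 0.0961), while DESeq2 called 3 as lower, Ero1l, P4ha1 and Tfrc. For ISP against control 4 rose and 1 fell by edgeR's call, while DESeq2 called 5 as higher and 1 as lower. Over all tested genes edgeR called 6.74% as higher and 3.42% as lower there, and DESeq2 called 1451 genes as higher and 857 as lower. Ndrg1, a stress-response gene also abundant in oligodendrocytes, rose by 0.88 (edgeR adjusted p = 0.0254), and Tfrc, the transferrin receptor, fell by 0.76 on the log2 scale (edgeR adjusted p = 0.0220). The others that rose were Plod1 at 0.84, and, named after their values were seen, the heme oxygenase Hmox1 at 1.45 and the lipid droplet gene Plin2 at 0.99. All 3 were highest in ISP 14 and ISP 18, the mice with the highest microglia and macrophage markers and the highest astrocyte markers. Plod1 was at 36.5 and 39.6 CPM there and 22.7 and 25.0 CPM in ISP 12 and ISP 16, Hmox1 at 18.4 and 17.7 CPM there and 5.77 and 8.64 CPM in the other pair, and Plin2 at 11.4 and 14.4 CPM in ISP 14 and ISP 18. The part of either group of cells in these rises was not tested. The oligodendrocyte markers summed to 4871 to 11646 CPM with ISP, 2899.6 to 7234 with Veh and 3412 to 5137 in control, and their part in the Ndrg1 result was not tested.

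The 18 further glycolytic enzymes had a median log2 fold change of -0.15 for ISP against Veh, 4 of 18 being positive, with 0 called by edgeR or DESeq2 and 4 lower at an unadjusted p under 0.05. Of all 15214 tested genes, 8063 were positive and 1137 were lower at that unadjusted p, with a median of 0.02. Ldhb, the other lactate dehydrogenase subunit, was at 510.3 ± 21.7 CPM with ISP and 601 ± 71.0 with Veh (SD, n = 4 each), or -0.24 (edgeR adjusted p = 0.277), and the enolase Eno1 had -0.27 (edgeR adjusted p = 0.282). Veh 2 was the highest Veh mouse in both, at 688 CPM for Ldhb and 1418 CPM for Eno1. The other Veh mice were at 534 to 627 CPM for Ldhb and 1050 to 1130 CPM for Eno1. For Veh against control 0 of 18 were called by edgeR or DESeq2, with 0 at an unadjusted p under 0.05, a median of 0.04 and the aldolase Aldoc at 0.21 (edgeR adjusted p = 0.332). For ISP against control the aldolase Aldoa was the only one that edgeR called, falling by 0.32 on the log2 scale to 1993 ± 168 CPM with ISP, against 2479.7 ± 303 CPM in control (SD, n = 4 each, edgeR adjusted p = 0.0883). Pfkfb4, a relative of Pfkfb3, had 0.44 in the same comparison (edgeR adjusted p = 0.115). DESeq2 called Pfkfb4 as higher and called Aldoa and the isomerase Tpi1, named after its values were seen, as lower, and limma-voom called Aldoa and Tpi1.

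Of 6 glucose and lactate transporters, 0 were called by edgeR or DESeq2 for ISP against Veh, with 1 lower at an unadjusted p under 0.05 and a median of -0.02. Slc2a1, the glucose transporter of vessels and astrocytes, rose in Veh mice against control with a log2 fold change of 0.27 (edgeR adjusted p = 0.0996). This value lay at the edge of the threshold, and without control 21 edgeR called 0 genes of the whole table. The part of vessels or astrocytes in the Slc2a1 result was not tested. Slc16a7, a neuronal lactate carrier, fell in ISP mice against control by 0.51 on the log2 scale, with 35.3 ± 3.86 CPM with ISP and 50.1 ± 8.25 CPM in control (SD, n = 4 each, edgeR adjusted p = 0.0383). It had -0.32 for Veh against control (edgeR adjusted p = 0.163). DESeq2 called 1 of the 6 transporters as higher and 1 as lower for Veh against control, and the same numbers for ISP against control. In the list around pyruvate dehydrogenase, edgeR called 0 of 11 in any comparison, with 1, 2 and 3 genes at an unadjusted p under 0.05 for ISP against Veh, Veh against control and ISP against control, and medians of 0.02, -0.01 and -0.07. Its leading genes were Mpc2, of the mitochondrial pyruvate carrier, at -0.25 for ISP against Veh (edgeR adjusted p = 0.285) and the phosphatase Pdp1 at -0.32 for Veh against control (edgeR adjusted p = 0.160), the only one that DESeq2 called (adjusted p = 0.0723). Mpc2 was at 98.4 CPM in Veh 2, 70.9 to 83.4 CPM in the other Veh mice and 64.3 to 73.4 CPM with ISP.

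Among receptors and relatives of Vegfa, edgeR called 0 of 12 in any comparison, with 2, 1 and 2 genes at an unadjusted p under 0.05 for ISP against Veh, Veh against control and ISP against control, and medians of -0.09, 0.07 and -0.03. Nrp1, a co-receptor, was at 34.6 ± 2.59 CPM with ISP, 25.3 ± 5.06 with Veh and 35.1 ± 6.29 in control (SD, n = 4 each), a log2 fold change of 0.45 for ISP against Veh (edgeR adjusted p = 0.261, DESeq2 adjusted p = 0.0958) and -0.46 for Veh against control (edgeR adjusted p = 0.161, DESeq2 adjusted p = 0.0728), and was the only gene of the list that DESeq2 called. Vegfb had -0.28 for ISP against Veh (edgeR adjusted p = 0.277), at 102 CPM in Veh 2, 71.1 to 84.4 CPM in the other Veh mice and 62.1 to 73.1 CPM with ISP. The endothelial markers summed to 233 to 260 CPM with ISP, 257 to 299 with Veh and 228 to 259 in control. Of the 7 genes around adrenomedullin 4 were tested, and edgeR and DESeq2 called 0 in any comparison, with 1 lower for ISP against Veh, 1 higher for Veh against control and 0 for ISP against control at an unadjusted p under 0.05. Ramp2, which turns a calcitonin-type receptor into an adrenomedullin receptor, had -0.42 for ISP against Veh (edgeR adjusted p = 0.271), with all ISP mice below all Veh mice, as was true of 4.01% of tested genes.

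In the mitophagy list of 10 genes, edgeR and DESeq2 called 0 for ISP against Veh, with 3 lower at an unadjusted p under 0.05 and a median of -0.04. Phb2 had -0.25 (edgeR adjusted p = 0.263) and Map1lc3a -0.28 (edgeR adjusted p = 0.267). Phb2 was at 95.6 CPM in Veh 2, 78.4 to 84.7 CPM in the other Veh mice and 69.7 to 73.4 CPM with ISP. Map1lc3a was at 295 CPM in Veh 2, 217 to 249 CPM in the other Veh mice and 202 to 223 CPM with ISP. For Veh against control edgeR and DESeq2 called 0, with 1 higher at an unadjusted p under 0.05, and Pink1 had 0.22 (edgeR adjusted p = 0.247). For ISP against control edgeR called 1 of the 10 as higher, DESeq2 called 1 as higher and 1 as lower and limma-voom called 2, with 3 higher and 2 lower at an unadjusted p under 0.05. The gene called as lower by DESeq2 was Map1lc3a, at -0.35 (edgeR adjusted p = 0.119, DESeq2 adjusted p = 0.0548).

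**Figure D4:**
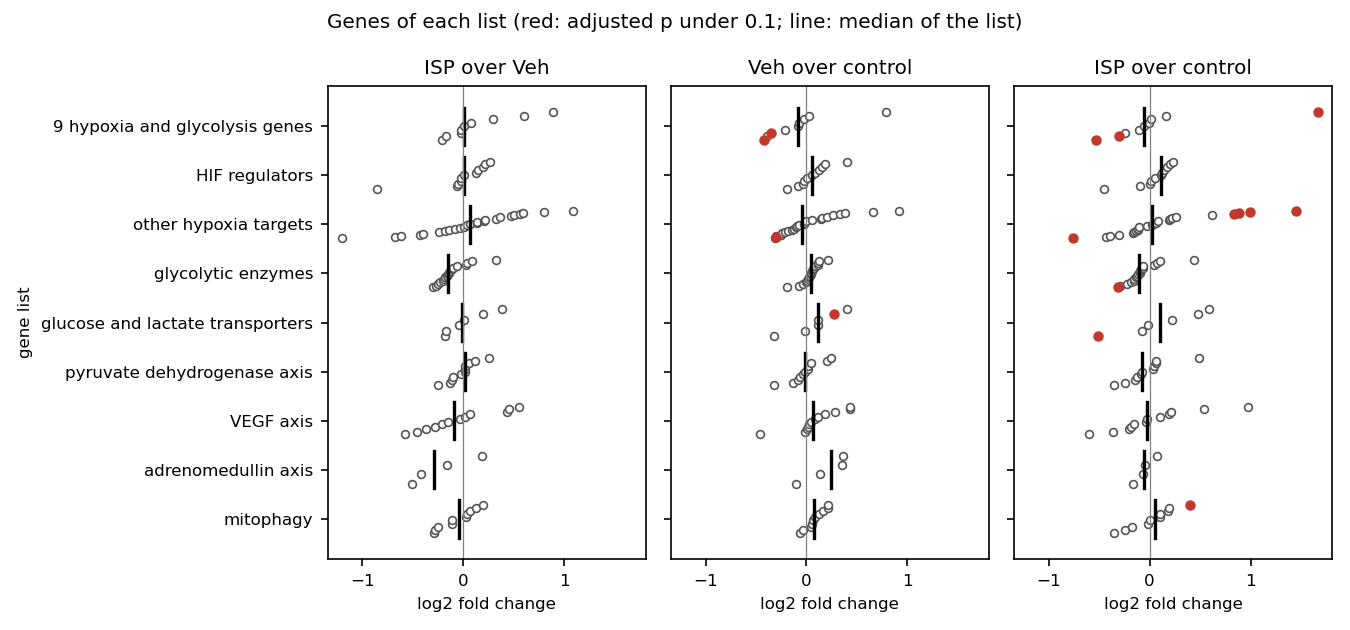
Log2 fold change (horizontal axes) of every tested gene of the 9 and of the 8 further lists, with 1 panel per comparison; red points have an edgeR adjusted p under 0.1 and each vertical bar is the median of its list. No point is red for ISP over Veh, and the glycolytic enzymes have their median at -0.15 there.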

How the data were processed

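Cortex labelled peri-infarct was profiled by RNA-seq in 12 libraries. The authors aligned reads to mm10 with HISAT2, counted reads on GENCODE genes with HTSeq defaults and deposited raw counts per gene, and the versions of these tools are not given in the sources used here. Each comparison used the counts of its own 8 libraries, with edgeR 4.0.16 in R 4.3.3 (filterByExpr by group, TMM, two-sided glmQLFTest) and p-values adjusted over all tested genes, called under 0.1. Alternatives were DESeq2 1.42.0, limma-voom (limma 3.58.1), DESeq2 size factors, no filter, a filter of 10 counts in every library, 1 fit over all 12 libraries, offsets for GC content and length (known for 98.1% of genes at least), a threshold of 0.05 and leaving out each library. Leaving out both ISP 14 and ISP 18, and DESeq2 with libraries left out, were added after the values were seen. The fits were tested on simulated data. Each ISP and Veh library is 1 mouse by the methods, which do not describe the control libraries, and no batch is given. The 9 genes and the lists (8 of pathways, 12 of cell type markers) were chosen with earlier results of these data known. Named genes are the 9, the 2 with the smallest p of each pathway list in each comparison, up to 2 abundant markers per list and the gene most like each of the 9 on log2(CPM + 0.5). Not all of these are printed, and 1 gene that the rule takes is not reported here. Positions and lengths are from GENCODE M21 on GRCm38, which held 24365 of 25238 symbols.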

Additional observations from a re-analysis of the deposited data

Results flagged for a closer look

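Of 27 groups of 4 levels (9 genes in 3 groups), 1 held a mouse far from the others of its group: Egln3 in Veh 10, at 14.1 CPM, against 18.8 CPM in the nearest of the other Veh mice. Chance alone sets apart about 1 in 20 such groups.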

How the results depend on the processing

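No paired analysis was possible because the groups share no replicate numbers. Over the alternatives, 383 fold changes of the 9 genes kept their direction and side of the threshold, 27 kept only the direction, 1 passed newly and 39 changed sign, none of them called. With scaling to raw totals all 27 group means moved by less than 1 SD. The causes of the changes were not tested. Adm had 28 to 78 counts per library and Hk2 44 to 288.

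For ISP against Veh, DESeq2 called 401 genes and 1 of the 9. Leaving out 1 mouse, edgeR called 0 to 72 genes (72 without Veh 6), and DESeq2 called 25 (without Veh 8) to 877 (without ISP 16) genes and 0 to 1 of the 9. Without ISP 14 and ISP 18, DESeq2 called 17 genes and 0 of the 9 (Pfkfb3 adjusted p = 0.182), and edgeR gave log2 fold changes of -0.030 for Hk2, 0.048 for Pgk1, -0.017 for Pdk1 and 0.054 for Egln3. Pdk1 was at -0.0036 with DESeq2 size factors, -0.0045 with DESeq2, -0.017 with limma-voom and -0.097 with GC and length offsets, Egln3 at 0.0073 with limma-voom and Bnip3 at -0.00027 with the offsets. Leaving out 1 mouse gave -0.088 to 0.0053 for Pgk1, -0.062 to 0.028 for Pdk1 and -0.13 to 0.055 for Egln3.

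For Veh against control, 510 genes were called with no filter, 1109 by DESeq2, 28 in the fit over 12 libraries (0 of the 9, Pfkfb3 adjusted p = 0.154, Vegfa 0.118) and 18 at an adjusted p under 0.05 (0 of the 9). Leaving out 1 mouse gave 0 (without control 21) to 461 genes (without control 19), 0 to 2 of the 9, -0.055 to 0.032 for Pgk1 and -0.0083 to 0.082 for Pdk1.

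For ISP against control, 691 genes were called at an adjusted p under 0.05 and 90 without ISP 14 and ISP 18 (0 of the 9), where Pgk1 was at 0.022, Pdk1 at -0.0021 and Bnip3 at 0.083. Leaving out 1 mouse gave 420 (without ISP 14) to 2283 genes (without ISP 16), 1 to 3 of the 9, -0.026 to 0.072 for Pdk1, -0.060 to 0.041 for Bnip3 and -0.21 to 0.045 for Adm. Bnip3 was at 0.0027 with a filter of 10 counts and 0.0048 with limma-voom, and Pdk1 at -0.045 with the offsets.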
